A study of Gallus gallus with 6 samples.

Results

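Kinesins, centromere proteins and genes of the spindle checkpoint were examined in DT40, a chicken B cell line derived from the bursa of Fabricius, with and without the transcription factor PAX5. Members were taken by name: every gene of the array annotation whose single symbol begins with KIF, CENP, AURK, BUB, MAD2, NUF2, NDC80, SPC2 or PLK, or with SKA and a digit. This gave 72 genes out of 13009 named genes, measured by 160 of 38439 probe sets. A probe set is a group of array probes summarized as 1 value, and some probe sets carry several gene symbols. The brightest probe set, by its mean in all 6 samples, stands for each gene. Its other probe sets above background are given for members that passed and for some of the rest, so a single printed value is not always the only one.

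The controls were 3 samples of wild-type DT40. They were set against 3 samples of Pax5-/- DT40, in which PAX5 had been targeted by electroporation of a construct with a neomycin cassette and of another with a blasticidin cassette, followed by selection of stable clones. Whether 1 clone or several gave the 3 Pax5-/- samples is not stated, and transfection and clonal selection cannot be told apart from loss of PAX5 in this design. Samples of both groups were female and were cultured alike. Total RNA of each sample was hybridised to 1 chicken array, and the deposited values are log2 expression. The number of arrays limits the precision, and nothing says that the samples came from separate cultures, so the p-values rest on a spread that may be technical.

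Kinesins are motor proteins that walk along microtubules or take them apart. Some build the mitotic spindle and drive cytokinesis, while others carry cargo through the cytoplasm or along cilia. CENP proteins mark the centromere and assemble the inner kinetochore, on which the NDC80 and SKA complexes form the grip on microtubules. BUB and MAD2 proteins sense kinetochores that lack attachment and delay anaphase, and Aurora and Polo-like kinases regulate each of these steps. DT40 has been used widely to take kinetochore genes apart, because its genes can be disrupted readily.

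The array medians of the 6 samples lay between 3.948 and 4.016 on the log2 scale. Correlations across probe sets were 0.9946 to 0.9959 within wild type, 0.9909 to 0.9936 within Pax5-/- and lower, 0.9781 to 0.9806, between the groups. Background was taken as the 95% point of 687 probe sets for viral genomes on each array, on average 3.83. A group was taken as at background when all 3 of its samples were, and otherwise as above it. Of the 4 probe sets of PAX5, 1 fell from 4.42 to 3.58 (limma adjusted p = 0.00483) and was at background in every Pax5-/- sample, 2 were at background in both groups, and the brightest had a log2 difference of 0.24 ± 0.09 (SE, adjusted p = 0.136). Set against the B cell label, all 8 markers of B cells measured were above background in wild-type samples. In Pax5-/- samples 6 of the 8 had fallen, EBF1, a factor of B cell identity, to background (at least 28.0-fold, limma adjusted p = 1.03e-07), while the immunoglobulin light chain gene IGLL1 and SYK did not pass. Of 3 T cell markers CD247 rose, CD3E fell and CD3D did not pass, and no myeloid or erythroid marker passed. All 3 T cell markers were also above background in wild-type samples, with means of 11.48 for CD3D, 5.34 for CD3E and 4.42 for CD247. So were the 2 erythroid markers and 1 of the 2 myeloid markers, CSF1R. Signal above background alone therefore does not set the B cell markers apart.

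Of the 72 members, 10 fell in Pax5-/- cells, 2 rose and 60 did not pass the test, which was limma's moderated test with Benjamini-Hochberg adjustment over all probe sets and a threshold of 0.05. Among all named genes 9.74% fell and 6.01% rose, so 10 falls among 72 members (13.9%) lie close to the background, and 2 rises (2.78%) lie under it. Among genes above background in at least 1 group, 12.4% fell, against 10 of 69 members (14.5%). The changes were small. KIF5C fell 3.39-fold, and no other called member changed by as much as 2-fold. Among all named genes 1267 fell and 782 rose, and 524 of these called genes changed at least 2-fold. The falls among members were those of KIF5C, CENPP, SKA2P1, KIF9, BUB1, PLK4, KIF20B, KIF3A, CENPM and CENPT, and the rises those of CENPV and AURKAIP1.

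**Figure D1:**
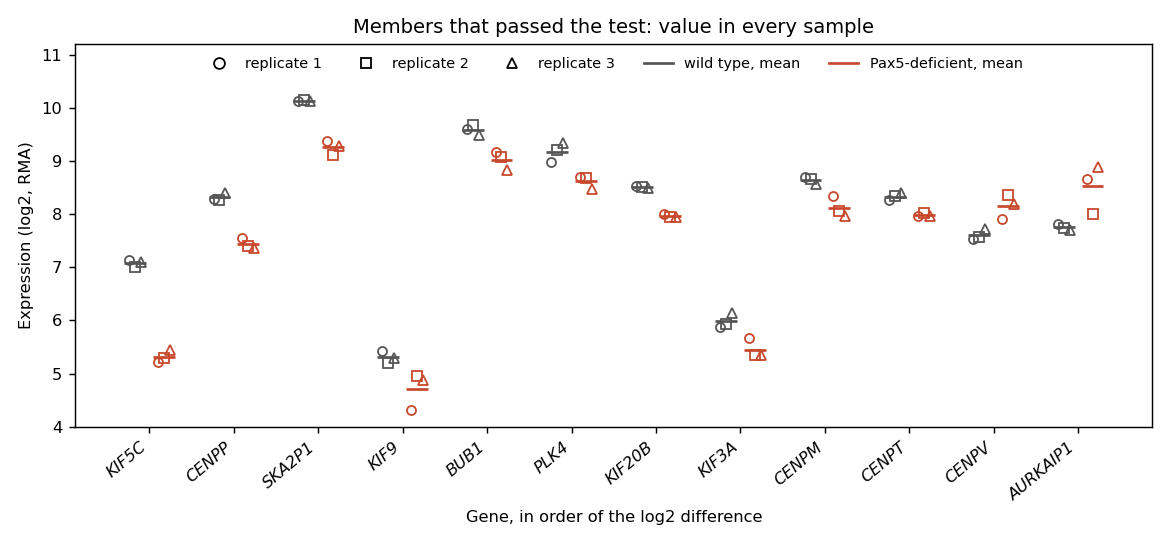
Log2 expression (vertical axis) of the 12 members that passed, in every sample, with wild type in grey and Pax5-deficient in red. Symbols mark the replicate number and horizontal lines the group means. In each of the 12 genes the groups do not overlap, and AURKAIP1 has a low value in Pax5-deficient replicate 2.

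The median and the signs were also set beside those of all genes. The log2 difference was below 0 for 51 of 72 members (70.8%), against 43.9% of all named genes, and the median was -0.13 among members and 0.03 among all genes. Without the 22 kinesins and kinesin partners of transport, cilia and other roles, 39 of 50 members (78%) were below 0 with a median of -0.22, and those 22 genes had 12 below 0 and a median of -0.02. All 3 Pax5-/- samples lay below all 3 wild-type samples in 21 of these 50 members (42%), against a background of 17.5% of all genes, and above them in 4 (8%), against 17.5%. Among genes above background in at least 1 group these shares were 21.6% and 19.6%, and 46.5% were below 0. In the bulk RNA used here, fewer cells in mitosis and less RNA per cell cannot be told apart. No test compares these lists with the rest of the array. The sign was not stable for every member, and 21 that were not called changed sign under at least 1 other processing.

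**Figure D2:**
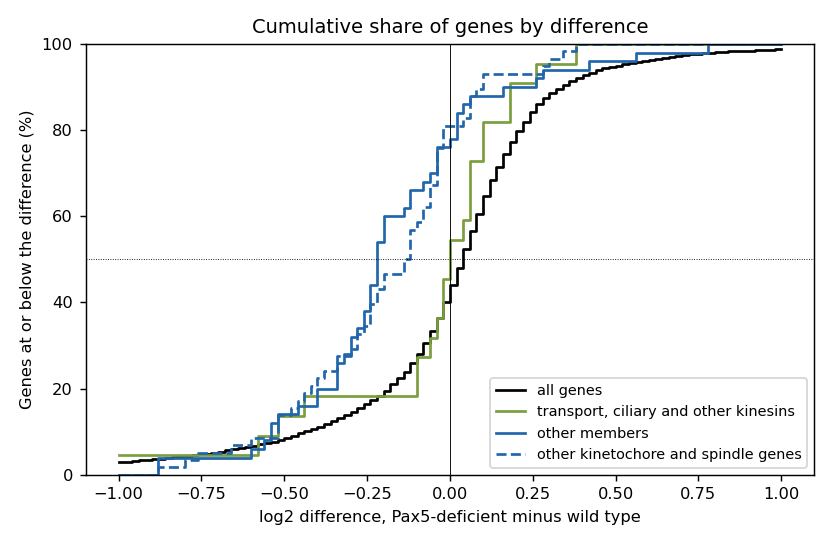
Cumulative share of genes (%, vertical axis) by log2 difference between Pax5-deficient and wild-type cells (horizontal axis), from -1 to 1. The line of the 50 members outside the transport, ciliary and other kinesins lies left of all 13009 genes over the middle of the range, as does that of 58 other kinetochore and spindle genes, while the 22 transport, ciliary and other kinesins, with their partners, have a median of -0.02.

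Relative to the wild-type mean, the median of the 50 members outside that group was -0.21 in Pax5-/- replicate 1, -0.15 in replicate 2 and -0.31 in replicate 3, where all genes had 0.03, 0.03 and 0.01. Replicate 3 held the lowest of the 3 Pax5-/- values in 30 of these 50 genes (60%), against 37.1% of all genes. Without that sample 5 members fell and 1 rose. The median of all 72 members was then -0.07, against -0.13 with every sample, and that of all probe sets was 0.035. Leaving out wild-type replicate 2 left 4 falls and no rise (4 members had an unadjusted p under 0.05 and a higher value), and leaving out wild-type replicate 3 left 6 and 1. Fewer probe sets of the whole array passed too, 3166, 2490 and 2824 in that order, against 4085 with every sample. The calls of KIF5C, CENPP, SKA2P1 and KIF20B held in each of these fits.

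**Figure D3:**
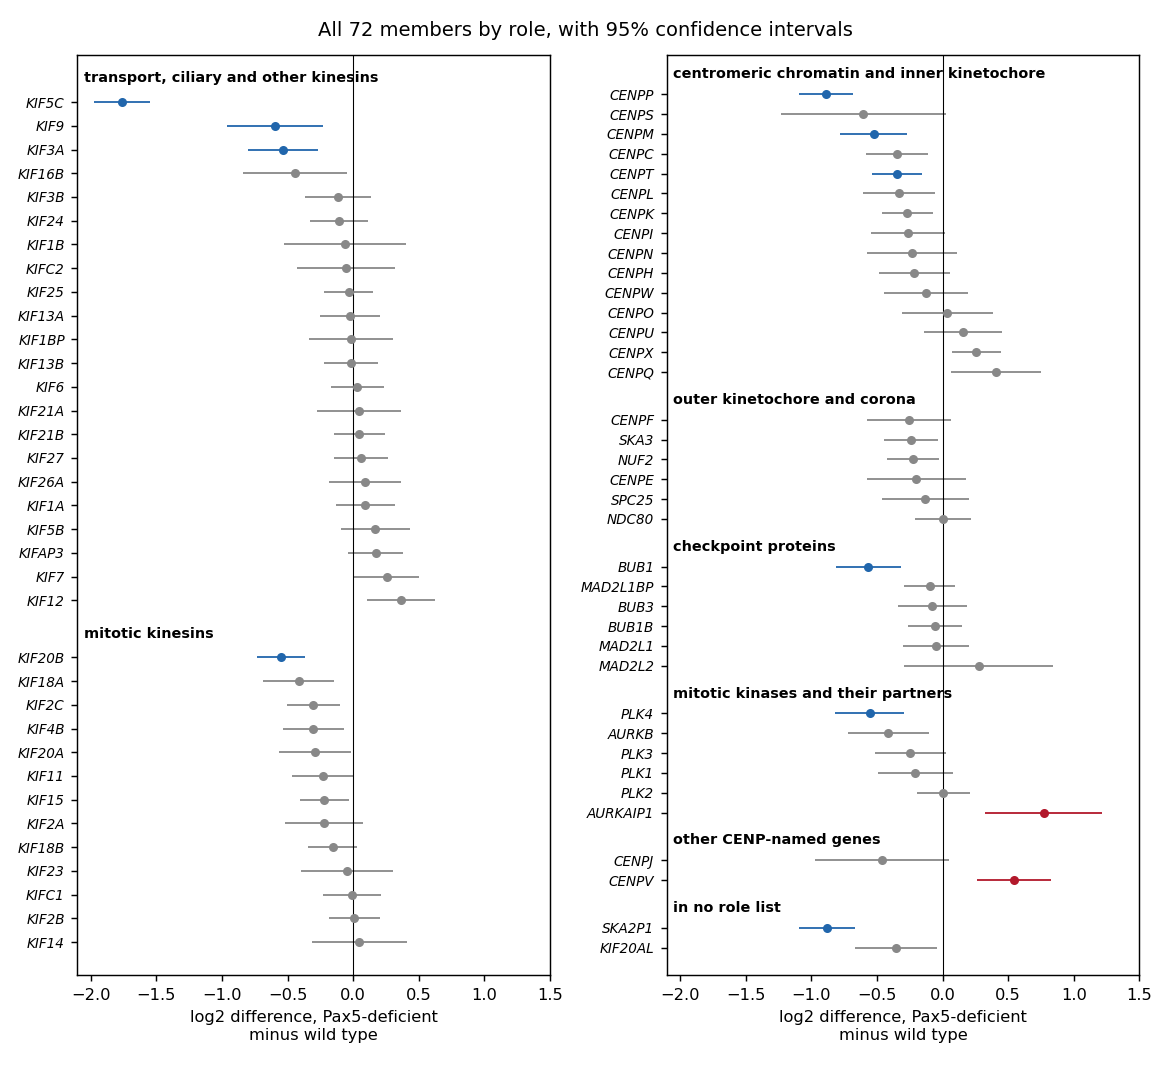
Log2 difference of each of the 72 members (horizontal axis, Pax5-deficient minus wild type) by role, with limma's 95% confidence interval. Blue marks members that fell, red those that rose and grey those that did not pass. Most mitotic kinesins and inner kinetochore genes lie left of 0 by less than 0.5, and KIF5C stands apart at -1.76.

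Among the kinesins of transport, cilia and other roles, KIF5C fell most. KIF5C is a heavy chain of kinesin-1, which carries vesicles and organelles, and is best known from neurons. Its values were 7.13, 7.01 and 7.10 in wild-type samples and 5.21, 5.30 and 5.44 in Pax5-/- samples. The Pax5-/- samples were all low and close together, and the difference was -1.76 ± 0.09 (SE, n = 3 per group; limma adjusted p = 9.58e-06). On another probe set it was -1.25 ± 0.15, and on 1 more it fell to background, at least 2.37-fold, while the last was at background in both groups. KIF5B, the kinesin-1 heavy chain that most cell types use, had values of 5.73, 5.98 and 5.94 in wild-type and 5.89, 6.23 and 6.04 in Pax5-/- samples. The groups overlapped, and its difference was 0.17 with a 95% confidence interval of -0.10 to 0.43. Its other probe sets had -0.09 ± 0.22 and 0.21 ± 0.18. The difference between the paralogs was not tested.

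KIF3A is a motor subunit of kinesin-2, which moves cargo along cilia. It had 5.88, 5.93 and 6.15 in wild-type and 5.66, 5.34 and 5.35 in Pax5-/- samples. The groups did not overlap, and the difference was -0.53 ± 0.12 (limma adjusted p = 0.0212). Its other probe sets had -0.30 ± 0.14 and -0.17 ± 0.11, and neither passed. With wild-type replicate 2 or 3 or Pax5-/- replicate 2 or 3 left out it did not pass (adjusted p = 0.0521 to 0.0852). Of its partners in kinesin-2, KIFAP3, the cargo adaptor, had a difference of 0.17 ± 0.09 with higher values in all Pax5-/- samples (adjusted p = 0.336), and KIF3B was above background on 1 wild-type array only, so its values give no fold.

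KIF9, a kinesin of motile cilia, had 5.42, 5.20 and 5.30 in wild-type and 4.32, 4.95 and 4.87 in Pax5-/- samples. Pax5-/- replicate 1 was the lowest, and the difference of -0.59 ± 0.16 lay at the threshold (limma adjusted p = 0.0499). Without that replicate it was -0.39 (adjusted p = 0.0529), and the call was also lost with each wild-type sample or Pax5-/- replicate 3 left out (0.072 to 0.154), after quantile normalization (0.0707) and with the mean of its 4 probe sets (-0.20, adjusted p = 0.0866), of which the other 3 were at background. This role had 3 falls among 22 genes (13.6%, against 9.74% of all genes). The remaining 19 genes did not pass. Their differences ran from -0.45 for KIF16B, which binds endosomes, to 0.37 for KIF12. KIF16B passed with the replicate number as a block (limma adjusted p = 0.0275), and KIF12 without wild-type replicate 1 (0.47, adjusted p = 0.0346). The values of KIF16B were near background, and under it in wild-type replicate 1 and Pax5-/- replicates 1 and 3. Another of its probe sets, also near background, had -0.26 ± 0.14 and did not pass. KIF1BP, a binding partner of kinesins, had 7.31, 7.82 and 7.79 in wild-type and 7.55, 7.73 and 7.58 in Pax5-/- samples, and the groups overlapped. KIF6, KIF25 and KIF27 were at background in both groups, so their values give no fold.

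Of 13 mitotic kinesins 1 fell, none rose and 12 did not pass (limma; at an unadjusted p under 0.05, 6 were lower and 0 higher). The share that fell, 7.69%, was under the 9.74% of all genes. KIF20B, a motor that acts at the midzone in cytokinesis, had 8.536, 8.509 and 8.490 in wild-type and 8.001, 7.944 and 7.941 in Pax5-/- samples. Both groups were tight and well apart, and the difference was -0.55 ± 0.08 (SE, n = 3 per group; adjusted p = 0.00248). Its other probe sets above background gave -0.54 ± 0.11, -0.54 ± 0.10 and -0.50 ± 0.11, and all passed.

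Of the 13 mitotic kinesins 11 were below 0 (84.6%, against 43.9% of all genes), with a median of -0.22. In 8 the Pax5-/- samples lay below all wild-type samples (61.5%, against 17.5% of all genes and 21.6% of those above background in a group). KIF18A, which shortens microtubules at kinetochores, had the next largest difference (-0.42 ± 0.12, adjusted p = 0.06), and it passed when p-values were adjusted over genes in place of probe sets and without wild-type replicate 1 or Pax5-/- replicate 1. KIF2C, a microtubule depolymerase of the centromere, had -0.30 ± 0.09 (adjusted p = 0.0649) on its brightest probe set and fell by 0.46 on another (adjusted p = 0.014). KIF4B, the chromosome-bound kinesin that the reference table also lists as KIF4 and KIF4A, had 10.89, 10.93 and 10.85 in wild-type and 10.68, 10.68 and 10.39 in Pax5-/- samples. The groups did not overlap, and the difference was -0.30 ± 0.10 (adjusted p = 0.108), with -0.31 and -0.21 on its other probe sets. KIF11, the motor that separates spindle poles, had -0.23 and -0.33 on its 2 probe sets, and KIF20A, a kinesin of the cytokinetic midzone, had -0.29 and -0.38, with none passing. KIF23, a motor of the central spindle, KIFC1, KIF2B and KIF14 lay between -0.05 and 0.05 on their brightest probe sets. The values of KIF2B were near background, and under it in wild-type replicate 1 and Pax5-/- replicates 1 and 3. Its other probe set was at background in both groups.

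The inner kinetochore is built from the CENP subunits that bind centromeric chromatin throughout the cell cycle. Among its 15 genes 3 fell, 12 did not pass and none rose (limma; at an unadjusted p under 0.05, 6 were lower and 2 higher). The share that fell was 20%, against 9.74% of all genes and 12.4% of those above background in a group. Their median difference was -0.26, and the Pax5-/- samples lay below every wild-type sample in 7 (46.7%) and above in 2 (13.3%), against 17.5% of all genes each way. Among genes above background in a group these shares were 21.6% and 19.6%. CENPP had 8.29, 8.27 and 8.40 in wild-type and 7.54, 7.40 and 7.36 in Pax5-/- samples, a clear separation of -0.89 ± 0.09 or 1.85-fold (SE, n = 3 per group; adjusted p = 0.000394), and its other probe set fell by 0.72 (adjusted p = 0.0142). Of its partners in the same subcomplex, CENPO had 0.04 ± 0.15 and, on its other probe set, 0.05 ± 0.18. CENPU had 0.15 ± 0.13 on the brightest probe set and -0.27 ± 0.11 on another, where all Pax5-/- samples were lower. CENPQ had 0.41 ± 0.15, with higher values in all Pax5-/- samples (adjusted p = 0.141), and 0.59 without Pax5-/- replicate 3, where it passed (adjusted p = 0.0145). ITGB3BP, the CENP-R subunit, had -0.52 ± 0.14 with lower values in all Pax5-/- samples (adjusted p = 0.0537). None of these partners passed over all samples, and their differences from CENPP were not tested.

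CENPM belongs to another subcomplex, with CENPH, CENPI and CENPK. Its values were 8.69, 8.66 and 8.57 in wild-type and 8.33, 8.06 and 7.96 in Pax5-/- samples. The groups were apart by -0.53 ± 0.11 (limma adjusted p = 0.0166), while its other probe sets were at background. It did not pass with wild-type replicate 1 or 2 or Pax5-/- replicate 3 left out (0.06 to 0.07), and with the mean of its probe sets (-0.17, adjusted p = 0.226). CENPK, CENPI and CENPH of the same subcomplex had -0.27, -0.26 and -0.21 and did not pass. CENPH had 9.40, 9.41 and 9.43 in wild-type and 9.33, 9.34 and 8.92 in Pax5-/- samples, so that Pax5-/- replicate 3 was the low one.

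CENPT, a DNA-binding subunit that recruits the NDC80 complex, had 8.27, 8.33 and 8.39 in wild-type and 7.96, 8.03 and 7.96 in Pax5-/- samples. The groups did not overlap, and the fall of -0.35 ± 0.08 (limma adjusted p = 0.029) was lost when any sample except Pax5-/- replicate 2 was left out (0.054 to 0.112) and with a variance trend (0.0646). Its other probe set had -0.22 ± 0.10 and did not pass (adjusted p = 0.248). Its histone-fold partners were CENPW at -0.13 ± 0.14, CENPX at 0.26 ± 0.08 and CENPS at -0.60 ± 0.28, none of which passed. CENPS was lowest in Pax5-/- replicate 2, and without that sample its difference was -0.21 ± 0.10. CENPC, the scaffold that binds the centromeric nucleosome, had -0.35 ± 0.10 with no overlap (adjusted p = 0.0716).

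At the outer kinetochore none of 6 members passed (limma, with 2 lower and 0 higher at an unadjusted p under 0.05). Among all genes 9.74% fell and 6.01% rose. NUF2, a subunit of the NDC80 complex, had 9.98, 10.08 and 9.95 in wild-type and 9.79, 9.86 and 9.71 in Pax5-/- samples. The groups did not overlap, but the difference of -0.22 ± 0.09 did not pass (adjusted p = 0.168), and another probe set had -0.03 ± 0.09. NDC80 itself had a difference of 0.00 with a 95% confidence interval of -0.21 to 0.22 on its brightest probe set and -0.23 ± 0.12 on the other. SPC25 had -0.13. SKA3, a subunit of the SKA complex, had -0.24 ± 0.09 (adjusted p = 0.15), and the large corona protein CENPE had -0.20 ± 0.17. On its other probe set CENPE had -0.41 ± 0.12 with no overlap (adjusted p = 0.0705). CENPF, another corona protein, had -0.25 ± 0.14, and without Pax5-/- replicate 2 it had -0.41 and passed (adjusted p = 0.0434). Its other probe sets above background ran from -0.19 to 0.19.

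SKA2P1 fell, although its name had placed it in no role list, so it is not counted among the outer kinetochore members. In the reference table it lies between TRIM37 and, past small RNA genes, PRR11. In the human genome these genes flank SKA2, a subunit of the SKA complex. Its values were 10.12, 10.15 and 10.14 in wild-type and 9.38, 9.12 and 9.27 in Pax5-/- samples. Wild-type values were nearly identical, and the difference was -0.88 ± 0.09 or 1.84-fold (SE, n = 3 per group; limma adjusted p = 0.000469). KIF20AL, also in no role list, was above background on 1 wild-type array only and did not pass.

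Of 6 checkpoint genes, BUB1 fell and the others did not pass. The share that fell, 16.7% against 9.74% of all genes and 12.4% of those above background in a group, rests on this 1 gene. BUB1, the kinase that recruits checkpoint proteins and marks centromeric histone H2A, had 9.59, 9.67 and 9.49 in wild-type and 9.17, 9.07 and 8.83 in Pax5-/- samples. The samples of the groups were apart, and the difference was -0.56 ± 0.11 or 1.48-fold (SE, n = 3 per group; limma adjusted p = 0.0108). Another probe set fell by 0.63 (adjusted p = 0.00851), and the remaining one was at background. It did not pass with wild-type replicate 2 left out (adjusted p = 0.0564).

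The other 5 checkpoint genes did not pass. BUB3, which docks BUB1 at kinetochores, had 11.36, 11.49 and 11.39 in wild-type and 11.53, 11.38 and 11.11 in Pax5-/- samples, and the groups overlapped. Its difference was -0.08, with a 95% confidence interval of -0.34 to 0.19. BUB1B, the BubR1 subunit that inhibits the anaphase-promoting complex, had -0.06 (-0.27 to 0.15), and MAD2L1, which inhibits CDC20, had -0.05 (-0.30 to 0.20). MAD2L1BP, which helps to switch the checkpoint off, had -0.10 (-0.29 to 0.10). MAD2L2, also known as REV7, serves translesion DNA synthesis and had a wide spread in Pax5-/- samples (0.28 ± 0.25). Without Pax5-/- replicate 2 its difference was 0.61 and passed (adjusted p = 0.0141), and without Pax5-/- replicate 1 it was 0.05.

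Among the kinases, PLK4, the regulator of centriole duplication, fell from 8.97, 9.20 and 9.34 in wild-type to 8.70, 8.68 and 8.48 in Pax5-/- samples. The groups did not overlap, and the difference was -0.56 ± 0.12 or 1.47-fold (SE, n = 3 per group; limma adjusted p = 0.016). Leaving out wild-type replicate 2 or 3 or Pax5-/- replicate 3 ended the call (0.0618 to 0.0703). PLK1, the main mitotic Polo-like kinase, had 11.04, 11.06 and 10.91 in wild-type and 11.05, 10.74 and 10.59 in Pax5-/- samples. Pax5-/- replicate 1 lay within the wild-type range, and the difference of -0.21 ± 0.12 did not pass (adjusted p = 0.397). PLK3, a stress-responsive kinase, fell by 0.48 on 1 of its 4 probe sets (adjusted p = 0.0485) and had -0.25 ± 0.12 on the brightest (adjusted p = 0.271). The other 2 had -0.49 and -0.36 and did not pass.

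The gene annotated as AURKB, an Aurora kinase, had 10.39, 10.30 and 10.02 in wild-type and 9.77, 10.06 and 9.63 in Pax5-/- samples. The groups overlapped slightly, and the difference of -0.41 ± 0.14 did not pass (limma adjusted p = 0.103). It passed without Pax5-/- replicate 2 (adjusted p = 0.0335). The reference table places it between CSTF1 and FAM210B on chromosome 20, genes that in the human genome flank AURKA, so the array annotation and gene order point to different Aurora kinases. CENPJ, a centriole protein despite its name, had -0.46 ± 0.22 and did not pass. It passed without wild-type replicate 1 (-0.72, limma adjusted p = 0.038) and with the replicate number as a block (0.0357).

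The 2 rises were those of CENPV and AURKAIP1. CENPV, a protein found at centromeres and on microtubules, had 7.54, 7.57 and 7.72 in wild-type and 7.91, 8.37 and 8.19 in Pax5-/- samples. All Pax5-/- values were higher, by 0.55 ± 0.12 (SE, n = 3 per group; limma adjusted p = 0.0234). Leaving out wild-type replicate 1 or 2 or Pax5-/- replicate 3 ended the call (0.0786 to 0.0946). AURKAIP1, named for its interaction with Aurora A and also a protein of the mitochondrial ribosome, had 7.81, 7.74 and 7.70 in wild-type and 8.67, 8.01 and 8.89 in Pax5-/- samples. It rose by 0.77 ± 0.20 (adjusted p = 0.0385), with Pax5-/- replicate 2 well under the other two. The call was lost when any sample except that one was left out (0.0921 to 0.128), and without it the rise was 1.03 (adjusted p = 0.000477).

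**Figure D4:**
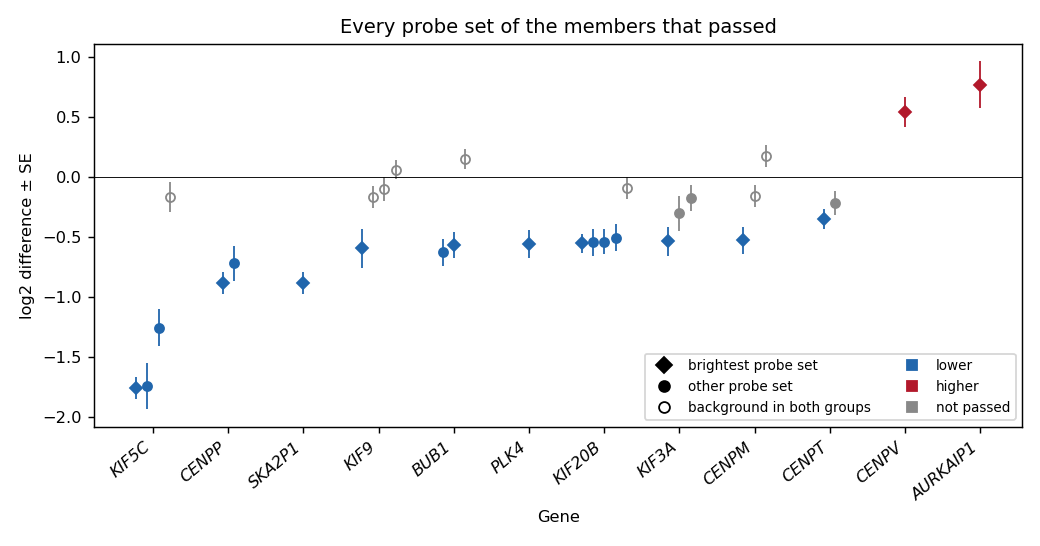
Log2 difference ± SE (vertical axis) of every probe set of the 12 members that passed. Diamonds are the brightest probe sets, filled circles the others and open circles those at background in both groups. KIF20B, KIF5C, BUB1 and CENPP have more than 1 probe set that passed. KIF9 and CENPM rest on 1 probe set above background, and SKA2P1, PLK4, CENPV and AURKAIP1 have only 1 probe set.

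Probe sets of 1 member mostly differed in the same direction. Of 32 members with 2 or more probe sets above background in a group, all such probe sets differed in 1 direction in 22, downward in 19 of them. Of all member probe sets 69.4% were below 0, so a shared direction alone does not show that probe sets agree. The like count over all genes was not made. No member had called probe sets in both directions. Of the 160 probe sets 42 were at background in both groups, 19 fell (11.9%, against 6.7% of all probe sets) and 2 rose (1.25%, against 3.93%). Of all 38439 probe sets, 14877 were at background in both groups. Probe sets of 1 gene are not independent, and KIF20B alone gave 4 of the falls and KIF5C 3.

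AURKAIP1 lies on chromosome 21, where the Pax5-/- samples differed among themselves. Over 216 measured genes of that chromosome the median deviation from the wild-type mean was 0.32 in Pax5-/- replicate 1, -0.01 in replicate 2 and 0.25 in replicate 3. Replicate 2 held the lowest of the 3 Pax5-/- values in 76.9% of these genes, against 30.6% of all genes. It was also the lowest in all 4 members on chromosome 21 by their brightest probe sets. On another probe set of KIF1B above background, with 4.34, 4.48 and 4.73 in Pax5-/- replicates 1, 2 and 3, it was not. MAD2L2 deviated by 0.72, -0.40 and 0.50 in replicates 1, 2 and 3, KIF1B, a mitochondrial and vesicle motor, by 0.41, -0.53 and -0.06, CENPS by -0.27, -1.38 and -0.16, and AURKAIP1 by 0.92, 0.26 and 1.14. After subtraction of the chromosome's median in each sample, AURKAIP1 still deviated by 0.60, 0.26 and 0.89. The part of the chromosome in the rise of AURKAIP1 was not tested.

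On chromosome 10 replicate 2 was the highest instead, with medians over 358 genes of 0.01, 0.17 and -0.01 in Pax5-/- replicates 1, 2 and 3. Replicate 2 held the highest Pax5-/- value in 63.1% of its genes, against 39.3% of all genes, and in both members there, KIF23 and KIF7, a regulator of cilia and Hedgehog signalling. Chromosome 9 was higher in all of them, at 0.22, 0.17 and 0.17 over 383 genes, and KIF1A, a vesicle motor and its only member, deviated by 0.09, 0.09 and 0.11. The difference of KIF1A, 0.09 ± 0.10 (SE), did not pass (limma adjusted p = 0.67). Its other probe sets above background in a group ran from -0.10 to 0.06.

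**Figure D5:**
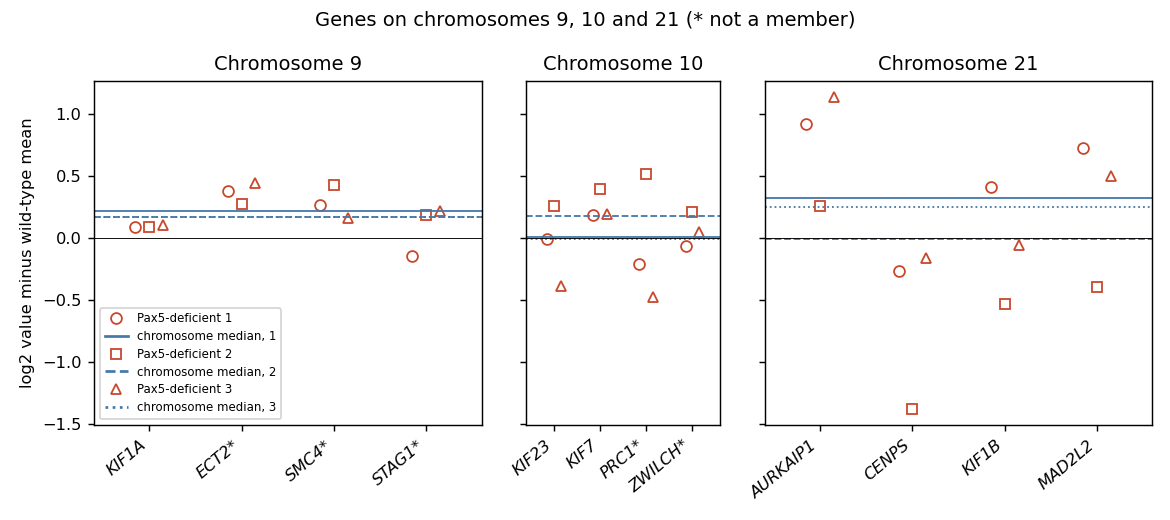
Deviation of each Pax5-deficient sample from the wild-type mean (log2, vertical axis) for members and, marked with an asterisk, other kinetochore and spindle genes on chromosomes 9, 10 and 21. Blue lines are the medians of all measured genes of the chromosome in each sample. Each gene is shown by its brightest probe set. On chromosome 21 replicate 2 (squares) is the lowest in all 4 members, and on chromosome 10 it is the highest in all 4 genes shown.

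Other genes of the kinetochore and spindle were taken from a list of 77 symbols, of which 58 were measured. Of these 10 fell, 1 rose and 47 did not pass in limma (17.2% and 1.72%, against 9.74% and 6.01% of all named genes), 47 were below 0, and the median difference was -0.14. Among all genes above background in a group 12.4% fell and 7.66% rose. CKAP2, a spindle microtubule protein, fell by 0.82 (adjusted p = 0.000748), PTTG2, of the securin family that restrains separase, by 0.67 (0.00316), and RAD21, the cleavable cohesin subunit, by 0.53 (0.00367). NUSAP1, which bundles spindle microtubules, fell by 0.77 (0.00408), MIS12, of the kinetochore's central scaffold, by 0.61 (0.00441), and NCAPD2, a condensin subunit, by 0.45 (0.00925). These genes had the smallest adjusted p of the list. The remaining falls were those of OIP5, the largest of the list at 0.90 (limma adjusted p = 0.0145), INCENP, TACC3 and NEK2. The rise was that of ECT2, an activator of the cytokinetic GTPase RhoA, named after its values were seen. It rose by 0.36 ± 0.09 (SE; adjusted p = 0.0408), lies on chromosome 9, whose median was 0.16 higher, and lost its call when any sample except Pax5-/- replicate 2 was left out (0.0556 to 0.146).

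Markers of proliferating cells were read beside these genes. Of 6 measured, 2 fell (33.3%, against 9.74% of all genes and 12.4% of those above background in a group), none rose and 4 did not pass. In limma 3 were lower and 0 higher at an unadjusted p under 0.05. MKI67, a marker of cycling cells, fell by 0.56 and CCNA2, the cyclin of S and G2 phase, by 0.38, while TOP2A, CDK1, PCNA and RRM2 had -0.29, -0.15, -0.11 and -0.02. The median of the 6 relative to wild type was -0.25, -0.16 and -0.30 in Pax5-/- replicates 1, 2 and 3, so that replicate 2 was the least and replicate 3 the most negative, as in the members. Replicate 3 also had the lowest median over all genes, which had 0.03, 0.03 and 0.01. The part of the proliferation markers in the differences of the members was not tested.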

How the data were processed

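Total RNA of 6 DT40 samples was labelled with biotin and hybridised to chicken arrays. The submitters' processing notes name RMA, and the values the authors deposited are log2 expression, 1 per probe set. No source used here gives the software version. RMA shrinks differences of dim probe sets. All 6 columns mapped to samples by accession, with 0 missing values.

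The 96 array controls were left out. Genes were named from the platform annotation, where 27168 probe sets had 1 symbol, 177 several and 11094 none. All 72 members had an entry in the RefSeq table (assembly GRCg7b), used for names, chromosomes and neighbours only. Promoter and protein sequences were not used here. Each of 38439 probe sets was fitted with limma 3.58.1 in R 4.3.3 (lmFit, eBayes, two-sided, group as the only term). The Benjamini-Hochberg adjustment ran over all of these. The fit was tested on simulated data. Alternatives were a variance trend, quantile normalization, no dim probe sets, the mean of probe sets, adjustment over genes, a replicate block and each sample left out. The members, lists and tests were chosen with earlier results of these data known. Values in every sample are given for members that passed and for the brightest of each role, and for some others chosen after their values were seen. Levels of different probe sets were not compared. The background level and the chromosome medians in each sample were added after the data were seen.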

Additional observations from a re-analysis of the deposited data

How the results depend on the processing

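Of the 12 member calls, those of KIF5C, CENPP, SKA2P1 and KIF20B held under every alternative run, and no called member changed direction. SKA2P1 has 1 probe set, so the mean of probe sets could not change its difference. Among members called neither in the main fit nor in the alternative, 21 changed sign under at least 1 alternative. After quantile normalization the median difference was -0.105 among members and 0.0185 among all probe sets. With 1 sample left out in turn, 4 to 12 members fell and 0 to 3 rose, 6 to 13 of the other kinetochore and spindle genes fell and 0 to 1 rose, and 2490 to 4172 probe sets passed in all, against 4085 with every sample. Where no member rose, without wild-type replicate 2, limma gave 4 higher members at an unadjusted p under 0.05. Among the other kinetochore and spindle genes the 1 rise became 0 with a variance trend, 0 with a replicate block (4 higher at an unadjusted p under 0.05 in each) and 2 after quantile normalization. The share of falls among all called genes was moved by quantile normalization, to 1138 lower and 1059 higher genes from 1267 and 782, while 9 members fell and 2 rose. Outside the fits without 1 sample, member calls were lost for CENPT with a variance trend (limma adjusted p = 0.0646) and the replicate block (0.056), for KIF9 after quantile normalization (0.0707), with the replicate block (0.068) and with the mean of probe sets (0.0866), and for CENPM with that mean (0.226). In the fit on that mean CENPC, CENPK, CENPX, KIF18A and KIF2C were gained, and KIF2C was also gained without Pax5-/- replicate 2. CENPC, CENPK, CENPX and KIF18A have 1 probe set each, so their differences stayed the same. For them only the error and the adjustment, which ran over genes, differed. NCAPD2 lost its call with the mean of probe sets (0.0735). Deviations from the group means correlated by 0.12, 0.07 and -0.01 between samples of the same replicate number, 1, 2 and 3. Between samples of different numbers the correlations ran from -0.12 to 0.06. These values do not settle whether samples pair by number. With the replicate block 10 members fell and 2 rose in limma, and 10 of these calls were shared with the fit without it. CENPJ (adjusted p = 0.0357) and KIF16B (0.0275) were gained and CENPT and KIF9 lost. The cause of these changes was not tested. At 3 arrays a group, differences of the size seen in most members lay within the error.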
